A study of Canis lupus familiaris with 8 samples.

Results

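The genes described here encode the scaffolds and membrane proteins of the tight junction and the complexes that set apical-basal polarity in epithelial cells. A list of 36 such genes was matched by symbol to a table of 37952 dog genes, and 35 were found. The remaining one, PALS1, has no row under that symbol. The row of its older symbol, MPP5, is described beside the others and is left out of every count unless stated. Of the 35 genes, 34 had enough reads to be tested among 14571 genes.

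MDCK GII, an established epithelial line from dog kidney, was grown overnight as a monolayer on collagen-coated silicone membranes, and its polyA RNA was sequenced. The stretch group was 4 wells held at 18% equi-biaxial static strain for 2 hours. The control group was 4 wells of the same line on the same kind of membrane, with no strain given in the labels. Both groups carry the replicate numbers 1 to 4. The labels call the wells technical replicates spread over several devices, so p-values measure only the spread between wells of 1 cell line, which may be technical. In these bulk samples, fewer cells of a type and less RNA per cell cannot be told apart. According to its title, the study asks how force on E-cadherin reaches EGFR and ERK, and the comparison shows whether transcripts of the neighbouring junction and of the polarity machinery changed by 2 hours.

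Tight junctions seal the space between epithelial cells at the border of the apical and lateral membrane. Their membrane proteins (claudins, occludin and its relatives, and JAM proteins) bind cytoplasmic scaffolds with PDZ domains, chiefly the ZO proteins, which connect them to actin. Polarity is set by mutually antagonistic modules: the Crumbs and PAR-aPKC complexes act apically, whereas the Scribble module and the kinase PAR-1 act on the lateral membrane. MDCK cells are a classic model of both.

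Depth did not differ between the groups beyond the spread of the wells. Totals ranged from 27047358 to 32478887 counts per well (two-sided exact permutation p = 0.714, n = 4 each). The 6 kidney epithelial markers examined, among them CDH1 (E-cadherin), PAX8 and KRT8, all averaged above 1 CPM in both groups. CPM is the TMM-normalised read count scaled to library size. Their sum was 4279 to 4904 CPM in control wells and 4587 to 4727 CPM in stretch wells, although CDH16 (kidney-specific cadherin) averaged only 1.27 ± 0.421 CPM in control and 1.65 ± 0.390 CPM in stretch wells. The 7 mesenchymal markers summed to 1.83 to 4.22 CPM in control wells and 3.16 to 3.88 CPM in stretch wells, with COL1A2, COL3A1 and DCN at 0 in all wells. The 4 endothelial markers summed to 1.03 to 1.73 and 0.790 to 1.61 CPM. The 4 immune markers summed to 0.498 to 0.698 and 0.412 to 0.993 CPM, with PTPRC, CD3E and ITGAM at 0.

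Unstretched monolayers transcribed most of the machinery at moderate to high level. Levels between genes are given as CPM per kilobase of annotated exon, as mean ± SD over the 4 control wells. The median of the 34 tested genes was 16.1 CPM per kb, against 8.59 for all tested genes, and 24 of the 34 lay above that median. Raw counts of the 34 genes ran from 129 to 20682 per well. The spread between control wells was small, with a median coefficient of variation of 6.28% over the 34 genes and 9.01% over all tested genes.

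At the head of the order stood EPCAM (374 ± 31.5 CPM per kb), an adhesion protein that stabilises claudin-7, and YBX3 (334 ± 12.2 CPM per kb), the Y-box factor that the SH3 domain of ZO-1 binds and that is also called ZONAB. The ranges of these 2 genes overlapped. Next came F11R (190 ± 9.01 CPM per kb), which encodes the adhesion protein JAM-A, and the recycling-endosome GTPase gene RAB11A (125 ± 2.88 CPM per kb), each clear of its neighbours in every well. RAB8A (54.1 ± 5.13 CPM per kb) and PRKCI (53.4 ± 1.96 CPM per kb) could not be ordered beyond their spread. The exon models of RAB8A and RAB11A are short, 760 and 1012 bases, and the per-kilobase values depend on these models.

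A long middle group followed in which neighbours mostly overlapped. It ran from CGN (cingulin, 42.3 ± 4.65 CPM per kb), PARD6B (41.3 ± 4.42), OCLN (occludin, 37.1 ± 2.71), LLGL2 (32.8 ± 4.55) and TJP1 (ZO-1, 32.4 ± 1.25) through PATJ (29.9 ± 1.52) to DLG1 (28.9 ± 1.80 CPM per kb). The Scribble module gene SCRIB and the kinase gene STK11 stood below these, at 23.5 ± 1.49 and 22.1 ± 1.11 CPM per kb. At the low end were TJP3 (ZO-3, 4.58 ± 0.459 CPM per kb), the transcription factor gene OVOL1 (2.74 ± 0.677), the scaffold gene MAGI1 (1.78 ± 0.203) and the cingulin relative CGNL1, also called paracingulin (0.724 ± 0.0953 CPM per kb). Each of TJP3 and CGNL1 was clear of its neighbours, whereas OVOL1 and MAGI1 overlapped.

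**Figure D1:**
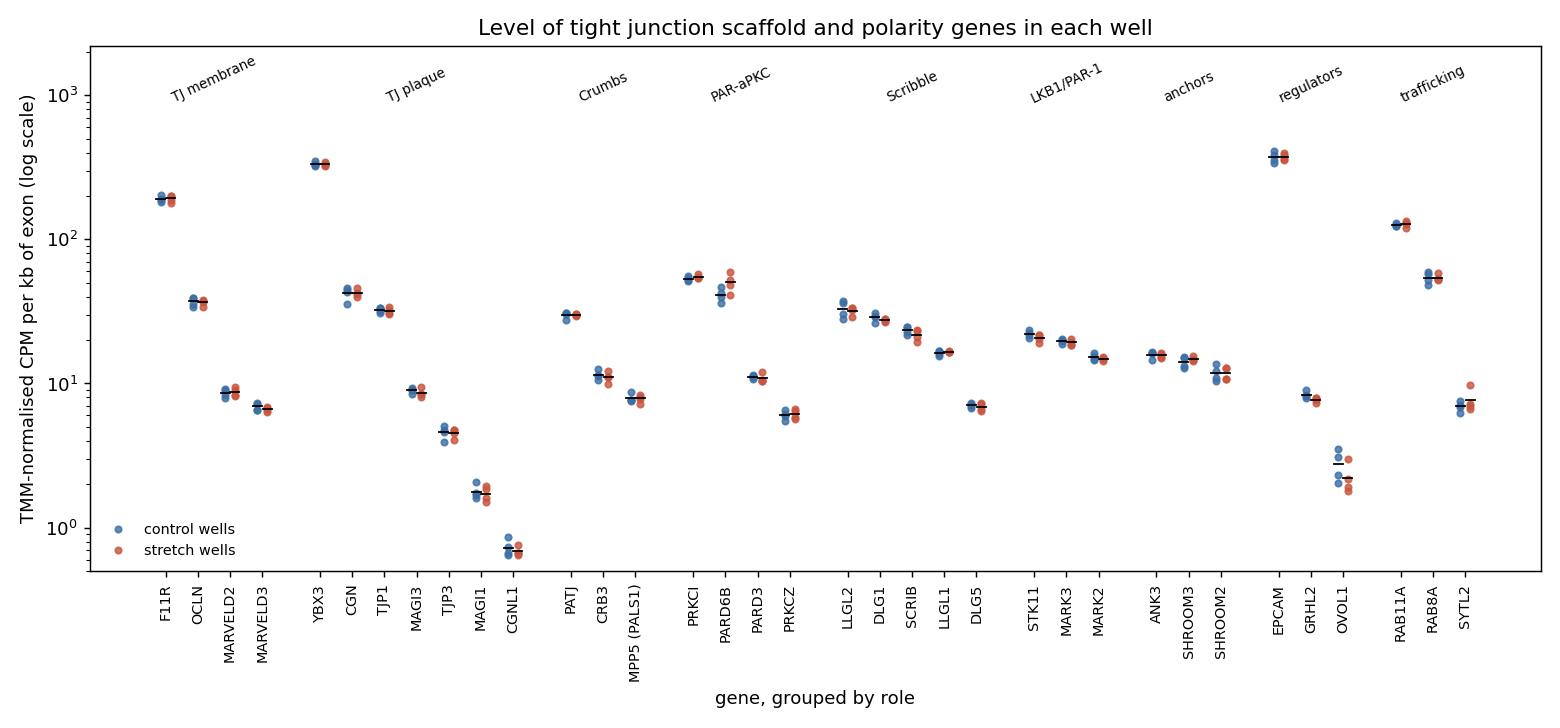
Level of each gene in every well, in TMM-normalised CPM per kb of exon on a log axis, grouped by role; blue points are the 4 control wells, red points the 4 stretch wells and black bars the group means. MPDZ, at 0 in all wells, is not drawn. Levels span from under 1 CPM per kb for CGNL1 to over 300 for EPCAM and YBX3, while the groups of most genes lie side by side.

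Within families of related genes, the monolayer used one or a few members. MPDZ (also called MUPP1), a scaffold with many PDZ domains, had 0 counts in all 8 wells, while its relative PATJ had 6370 to 7942 counts per well. A count of 0 among 237558216 counts allows up to 3 counts in total (95% limit for sampling error alone), which is 0.0126 CPM. Against that floor over all wells, PATJ was at least 18668-fold higher per kilobase. The floor does not cover differences between wells, the gene model or the counting settings, and their part in the 0 was not tested. CRB3, the epithelial Crumbs protein that recruits PALS1 and PATJ, had 1147 to 1602 counts per well, and CRB1 and CRB2 had 0 in every well.

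Further families were led by a single gene. PARD6B held 96.6 ± 0.608% of the summed PARD6 level per kb in control wells, PARD6A the remainder, and PARD6G had 0 counts. Of the atypical protein kinase C pair, PRKCI held 89.8 ± 0.408% and PRKCZ 10.2 ± 0.408%. Cingulin held 98.3 ± 0.190% of its pair, and ANK3, which encodes ankyrin-G of the lateral membrane, 98.6 ± 0.388% of the ankyrins.

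In other families the level was divided. Occludin held 70.5 ± 0.364% of the tight junction MARVEL proteins (TAMP), ahead of MARVELD2 (tricellulin, the protein of tricellular contacts) at 16.3 ± 0.0534% and MARVELD3 at 13.2 ± 0.333%. LLGL2 exceeded LLGL1 (66.7 ± 2.38% and 33.3 ± 2.38%), and MARK3 exceeded MARK2 (51.7 ± 2.38% and 40.1 ± 1.71%).

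In the stretch wells, no share in the 18 families differed from control by more than 3.37 percentage points, and outside the GRHL and OVOL families by no more than 1.51. The largest difference was in the grainyhead-like factors, where GRHL2 went from 47.4 ± 1.60% to 44.0 ± 2.04% of the summed level per kb. RAB11A and RAB11B, and RAB8A and RAB8B, are closely related in sequence, so their values are uncertain where a read fits both genes. How such reads were counted is not given in the sources used here.

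**Figure D2:**
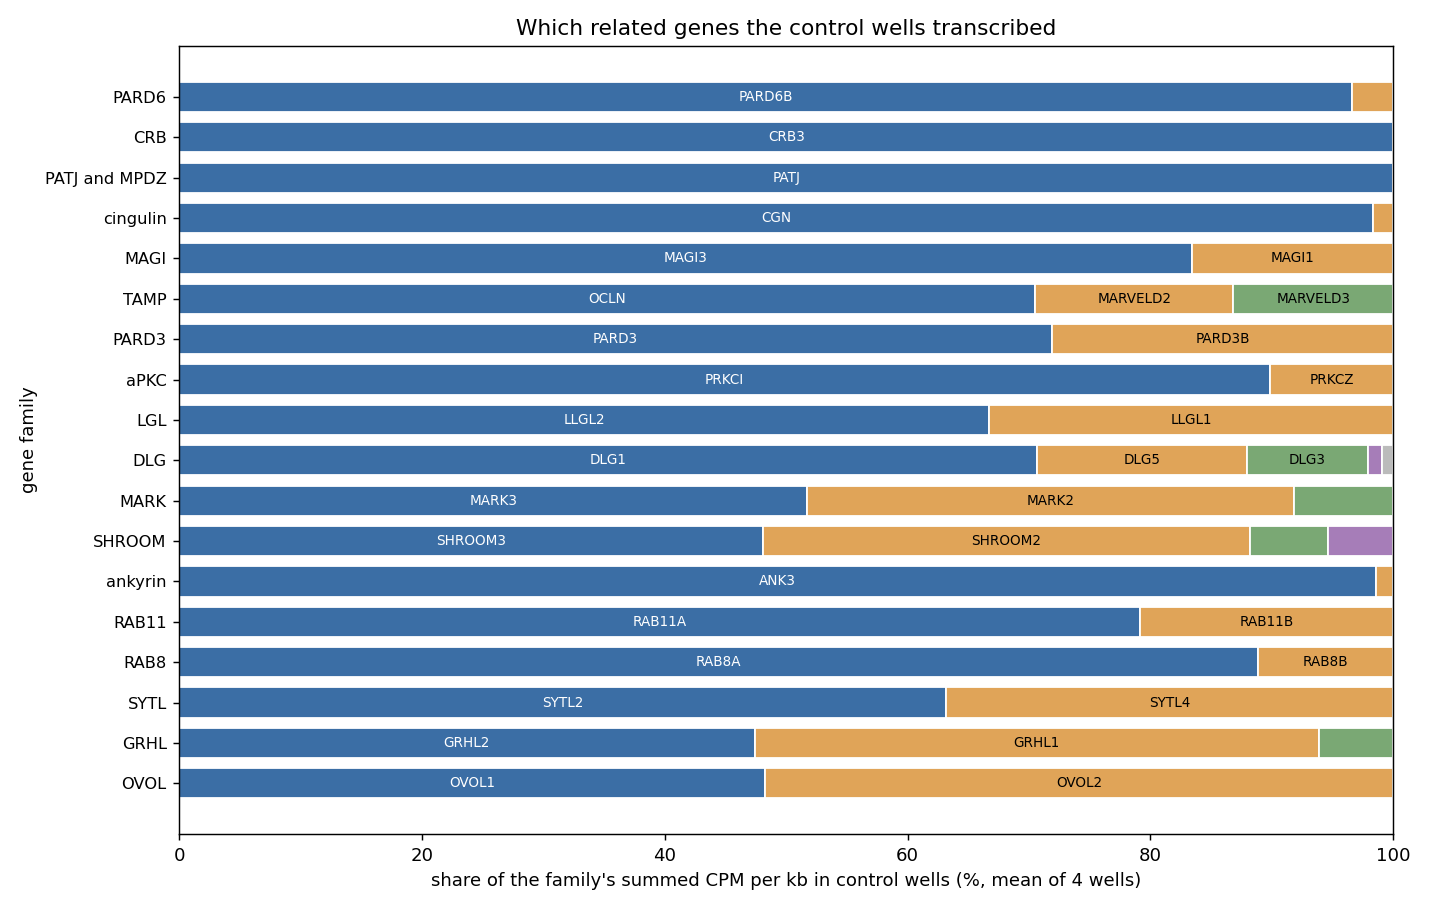
Share of each family's summed CPM per kb held by each of its genes in control wells (%, mean of 4 wells; stacked bars sum to 100, and shares under 9% carry no name). PARD6B, CRB3, PATJ, CGN and ANK3 hold over 96% of their families, while MARK, SHROOM, GRHL and OVOL levels are divided among members.

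After strain, 1 of the 34 genes, PARD6B, rose in the fit that pairs wells by replicate number, and none passed without pairing. In edgeR's quasi-likelihood test without a block, 0 of 34 had an adjusted p under 0.05 (Benjamini-Hochberg over all 14571 genes), as had 0.0% of all tested genes. At an unadjusted p under 0.05 there was 1 of 34 (2.94%), against 3.97% of all tested genes. DESeq2 without a block also called 0 of the 34, against 0.173% of the genes given to it.

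With the replicate number as a block, 1 of 34 passed (2.94%), against 0.7% of all tested genes (0.528% higher), and 3 of 34 (8.82%) had an unadjusted p under 0.05, against 8.89%. Across the whole list the share with small p-values was therefore near the background.

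For most members the data bound the change closely. Without the block, 29 of the 34 genes (85.3%) had a log2 change smaller than 0.1 in size, against 68.0% of all tested genes. The median log2 change of the 34 was -0.019, against -0.0032 over all tested genes, and 21 of 34 (61.8%) were below 0, against 51.8%. The whole 95% interval of the log2 change lay within 0.25 of 0 for 28 of 34 (82.4%), against 45.7% of all tested genes. The members' median standard error was 0.062, against 0.091 for all tested genes, at a median level of 70.2 and 25.8 CPM over all wells, and the part of level in these narrow intervals was not tested.

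**Figure D3:**
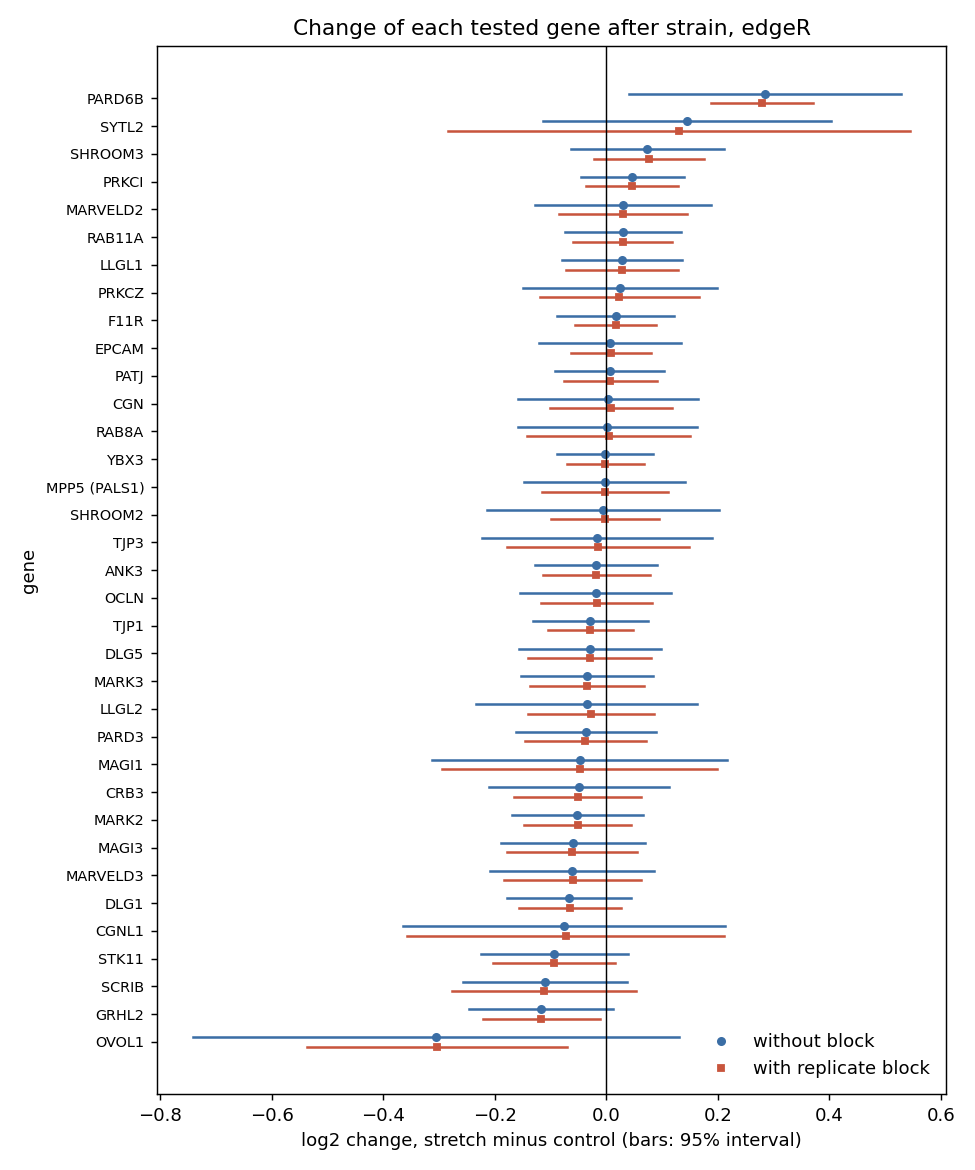
Log2 change (stretch minus control) of the 34 tested genes and of MPP5, with 95% intervals, from edgeR without a block (blue circles) and with the replicate number as a block (red squares). PARD6B is the highest and OVOL1 the lowest; with the block the intervals of PARD6B, GRHL2 and OVOL1 leave out 0, and most others are centred within 0.1 of it.

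The gene that passed, PARD6B, encodes PAR-6 beta, the adaptor that joins atypical protein kinase C to the GTPase CDC42 and to PAR-3. It lies on chromosome 24 (37730480 to 37746871, plus strand) and overlaps no exon of another gene. Control wells 1 to 4 had 127, 139, 164 and 150 CPM, and stretch wells 145, 183, 208 and 170 CPM. Each stretch well was higher than the control well of its number, but the groups overlapped, since stretch well 1 lay below control wells 3 and 4. The group means were 145 ± 15.5 and 177 ± 26.1 CPM (SD, n = 4 each).

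With the block, the log2 change of PARD6B was 0.28 ± 0.04 (SE; 95% interval 0.19 to 0.37), with an adjusted p of 0.00311 in edgeR. DESeq2 with the block gave an adjusted p of 2.82e-05 and called 1 of the 34, against 0.637% of the genes given to it. Within pairs, the log2 differences of PARD6B were 0.19, 0.39, 0.34 and 0.18 for replicates 1 to 4, and leaving out each pair in turn gave 0.25 to 0.31 with adjusted p from 0.00116 to 0.0380 in edgeR.

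The call rested on pairing wells by number. Without a block the same change of 0.28 had an SE of 0.11 (edgeR, unadjusted p = 0.0262, adjusted p = 0.999), and the two-sided exact permutation p of log2 CPM for PARD6B was 0.0857. With a block of only 2 levels, replicates 1 and 2 against 3 and 4, the adjusted p was 0.381 in edgeR, and 0 of the 34 passed, against 0.398% of all tested genes. The labels do not say what wells of equal number shared, and the deviations of control wells 2, 3 and 4 correlated best with a stretch well of another number within these 2 sets. PARD6B was higher in all 4 pairs, as were 8.45% of all tested genes.

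The partners of PARD6B did not pass in either fit. PRKCI, the main atypical kinase gene, had 262, 256, 241 and 247 CPM in control wells and 257, 255, 270 and 256 CPM in stretch wells. These ranges overlapped, and the log2 change was 0.046 ± 0.043 (SE; 95% interval -0.046 to 0.14). PRKCZ changed by 0.024 and PARD3, the gene of the scaffold PAR-3, by -0.036 on the log2 scale, with intervals of -0.15 to 0.20 and -0.16 to 0.090.

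Of the tight junction membrane proteins, 0 of 4 passed with or without the block, and log2 changes ran from -0.062 to 0.030. F11R had 593, 576, 601 and 643 CPM in control wells and 569, 599, 638 and 636 CPM in stretch wells, so the groups covered nearly the same range (log2 change 0.017 ± 0.049, SE; 95% interval -0.088 to 0.12). MARVELD3 had 29.3, 30.1, 26.9 and 26.7 CPM against 28.2, 27.4, 25.9 and 26.7 CPM. Replicates 1 and 2 were the high control wells of this gene, and the log2 change was -0.062 ± 0.068. Its exons overlap 379 bases of a gene on the opposite strand, and the strand setting of the counting is not given in the sources used here. The same uncertainty holds for 7 of the 34 genes, with overlaps of 1107 bases in CRB3, 359 of 4698 in MAGI1, 184 of 6496 in MAGI3, 116 in PRKCZ, 56 in SYTL2 and 42 in LLGL1. The log2 change of OCLN was -0.019, with an interval of -0.15 to 0.12.

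Among the plaque scaffolds, 0 of 7 tested genes passed in either fit, with 1 above 0 and 6 below. YBX3 had 614, 564, 588 and 576 CPM in control wells and 606, 582, 570 and 580 CPM in stretch wells. Its interval was the narrowest of the 34 without the block, around a log2 change of -0.0022 ± 0.040 (95% interval -0.088 to 0.084), whose sign turned with upper-quartile factors, library size only or a filter of 10 counts in every well. TJP1 changed by -0.028 (interval -0.13 to 0.075) and CGN by 0.0033 (interval -0.16 to 0.17). CGNL1, with 129 to 168 raw counts per well, had 6.06, 4.56, 4.71 and 5.22 CPM in control wells and 4.74, 4.77, 5.38 and 4.59 CPM in stretch wells. Its log2 change of -0.076 ± 0.13 (interval -0.36 to 0.21) is among the least precise.

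In the Crumbs complex, 0 of 2 tested genes passed in either fit. PATJ had 244, 241, 220 and 247 CPM in control wells and 237, 235, 243 and 242 CPM in stretch wells (log2 change 0.0060 ± 0.045; interval -0.091 to 0.10). CRB3 had 44.8, 45.9, 42.2 and 49.8 CPM against 44.1, 49.0, 39.3 and 44.1 CPM, a log2 change of -0.050 ± 0.075. Control well 4 and stretch well 2 were its high wells. CRB3 is uncertain, because 1107 of its 3980 exon bases overlap DENND1C on the opposite strand. For PALS1, counted as MPP5, control wells had 44.2, 43.7, 50.1 and 44.0 CPM and stretch wells 41.8, 45.1, 46.4 and 48.2 CPM, a log2 change of -0.0030 ± 0.067 that turned above 0 with upper-quartile factors, library size only or a filter of 10 counts in every well. MPP5 is uncertain too, since its exons overlap FAM71D by 142 bases on the same strand and another gene by 203 bases on the opposite strand.

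In the Scribble module, which holds the lateral membrane against the apical complexes, 0 of 5 passed in either fit. SCRIB had 116, 111, 127 and 126 CPM in control wells and 120, 119, 99.3 and 107 CPM in stretch wells. Its log2 change of -0.11 ± 0.068 (interval -0.26 to 0.038) was -0.29 in replicates 3 and 4 and 0.072 in replicates 1 and 2, neither past the threshold. LLGL2, which encodes a lethal giant larvae protein phosphorylated by atypical kinase, had 104, 112, 139 and 134 CPM against 107, 125, 124 and 120 CPM (log2 change -0.035 ± 0.090), and was likewise 0.11 in replicates 1 and 2 and -0.15 in replicates 3 and 4. DLG1, DLG5 and LLGL1 had log2 changes of -0.067, -0.029 and 0.028.

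All 3 kinase genes of the LKB1 and PAR-1 group had log2 changes below 0 and none passed in either fit. STK11 encodes LKB1, which activates the PAR-1 kinases MARK2 and MARK3. It had 60.3, 56.3, 59.1 and 63.5 CPM in control wells and 54.8, 58.7, 51.9 and 58.8 CPM in stretch wells. Its ranges overlapped, and the log2 change was -0.093 ± 0.061 without the block (interval -0.23 to 0.039; edgeR, unadjusted p = 0.151) and -0.094 ± 0.051 with it (adjusted p = 0.676). MARK2 and MARK3 changed by -0.052 and -0.034.

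Of the genes that anchor the membrane to the cytoskeleton, 0 of 3 passed in either fit. SHROOM3, which drives apical constriction, had 89.9, 88.2, 105 and 103 CPM in control wells and 99.9, 98.9, 101 and 106 CPM in stretch wells. Control wells 1 and 2 lay below the rest, and the log2 change was 0.074 ± 0.064 (interval -0.064 to 0.21). The change of SHROOM3 was 0.16 in replicates 1 and 2 and 0.0021 in replicates 3 and 4, neither past the threshold. ANK3 had 279, 279, 247 and 277 CPM against 261, 255, 277 and 274 CPM, with control well 3 below all others (log2 change -0.019 ± 0.051). SHROOM2 changed by -0.0057.

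The regulators GRHL2 and OVOL1 were lower in all 4 pairs without passing the adjusted threshold. GRHL2 encodes a grainyhead-like factor that drives E-cadherin and claudin genes. It lies on chromosome 13 (3335250 to 3493208, plus strand). Control wells had 43.3, 47.4, 44.3 and 42.20 CPM and stretch wells 41.9, 42.15, 40.6 and 38.7 CPM. Every stretch well of GRHL2 was therefore below every control well, by a narrow margin, which held for 1 of 34 genes (2.94%) in either direction, against 2.55% of all tested genes (1.24% lower). Its nearest wells, control well 4 and stretch well 2, had TMM factors of 0.998 and 1.001. With library size alone their order turns and the groups overlap. The log2 change of GRHL2 was -0.12 ± 0.050 (SE) with the block (edgeR, unadjusted p = 0.0330, adjusted p = 0.491) and -0.12 ± 0.059 without it (unadjusted p = 0.0714). The two-sided exact permutation p of GRHL2 was 0.0286, the smallest that 70 arrangements allow. This p rests on that order of control well 4 and stretch well 2.

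OVOL1 encodes a zinc-finger repressor of mesenchymal genes and lies on chromosome 18 (51954801 to 51966586, minus strand). It had 9.95, 8.84, 6.64 and 5.78 CPM in control wells and 8.52, 6.21, 5.42 and 5.09 CPM in stretch wells, from 158 to 273 raw counts per well. In both groups replicates 1 and 2 were the high wells, and the groups overlapped. With the block the log2 change of OVOL1 was -0.30 ± 0.11 (edgeR, unadjusted p = 0.0140, adjusted p = 0.355), and without it -0.31 ± 0.20 (interval -0.74 to 0.13; unadjusted p = 0.153). Being lower in all 4 pairs held for 2 of the 34 genes (5.88%), against 7.84% of all tested genes. EPCAM, the third gene of this group, had 582, 541, 481 and 504 CPM in control wells and 558, 545, 502 and 512 CPM in stretch wells (log2 change 0.0063 ± 0.059).

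**Figure D4:**
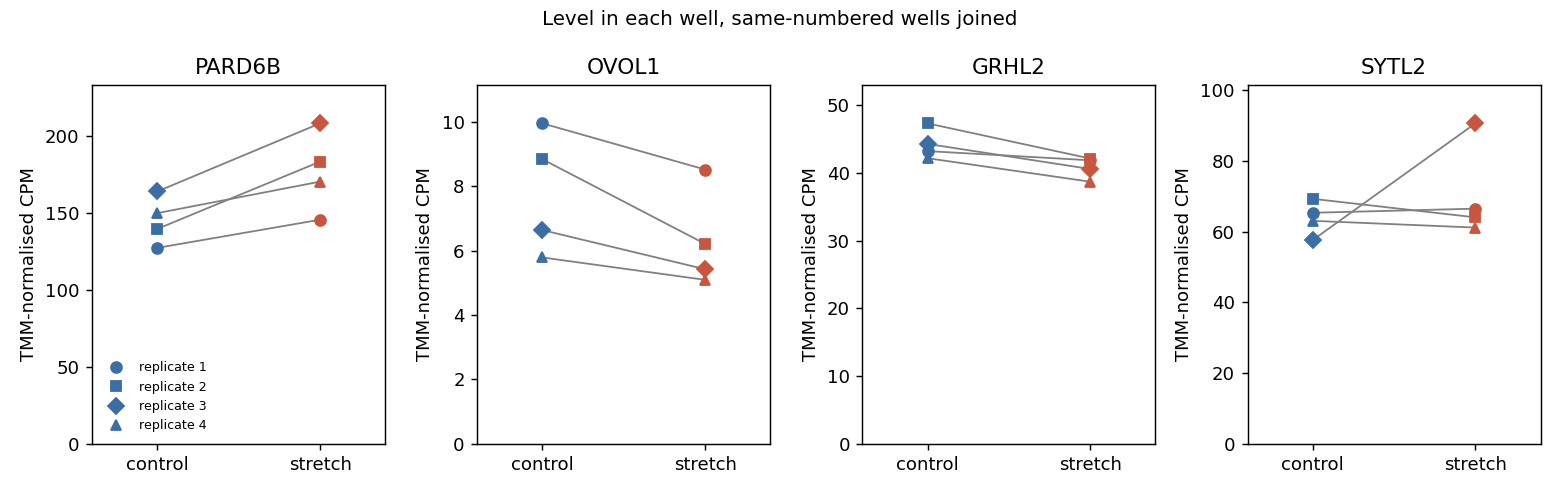
TMM-normalised CPM of PARD6B, OVOL1, GRHL2 and SYTL2 in each well, with control (blue) and stretch (red) wells of the same replicate number joined; every vertical axis starts at 0. PARD6B is higher and OVOL1 and GRHL2 are lower after strain in 4 of 4 pairs, whereas the SYTL2 difference comes from replicate 3 alone.

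In apical trafficking, 0 of 3 genes passed in either fit. RAB11A had 131, 125, 127 and 124 CPM in control wells and 132, 130, 121 and 135 CPM in stretch wells, a log2 change of 0.030 ± 0.048. SYTL2, which encodes the Rab27 effector synaptotagmin-like 2 of apical vesicle delivery, had 65.3, 69.3, 57.6 and 63.0 CPM in control wells and 66.5, 64.0, 90.6 and 61.1 CPM in stretch wells. Stretch well 3 was far above the other 7 wells. The log2 change of SYTL2 was 0.15 ± 0.12 over all wells and 0.0028 without that well. The log2 change of RAB8A was 0.0018 (interval -0.16 to 0.16).

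Part of the variation between wells followed the replicate number. Described as replicates 3 and 4 minus replicates 1 and 2, with no test, OVOL1 differed by -0.60 in control and -0.47 in stretch wells on the log2 scale. SHROOM2 differed by 0.30 and 0.25, with 76.9, 80.7, 102 and 91.4 CPM in control wells 1 to 4 and 79.9, 79.8, 94.7 and 95.4 CPM in stretch wells. PARD6B differed by 0.23 and 0.21, close to the size of its change with strain, and its log2 change with strain was 0.30 when replicates 1 and 2 were fitted alone and 0.28 for replicates 3 and 4 (edgeR, adjusted p = 0.622 and 0.416). These 3 of 34 genes (8.82%) passed 0.2 in size and in 1 direction in both groups, as did 17.1% of all tested genes.

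Other genes of these pathways were counted in the same fits. Of 72 further junction, polarity, epithelial regulator and trafficking genes, 70 were in the table and 62 were tested. In edgeR, 0 of 62 passed with or without the block. At an unadjusted p under 0.05 there were 2 higher and 0 lower without the block (2.22% and 1.76% of all tested genes), and 4 higher and 1 lower with it (4.99% and 3.9%). The smallest p was that of ELF3, an epithelial ETS factor gene. It had 138, 117, 114 and 128 CPM in control wells and 152, 154, 140 and 129 CPM in stretch wells, higher in 4 of 4 pairs (log2 change 0.21 ± 0.054 with the block; edgeR, adjusted p = 0.115).

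PLEKHA7, the gene of an adherens junction protein, went from 2.06 ± 0.356 to 2.78 ± 0.449 CPM (n = 4; edgeR with the block, adjusted p = 0.470). PODXL, the gene of the apical sialoglycoprotein podocalyxin, went from 324 ± 16.9 to 350 ± 27.7 CPM (n = 4; edgeR with the block, adjusted p = 0.271). Both were higher in 4 of 4 pairs, as were 9 of the 62 genes and 8.45% of all tested genes. Lower in all 4 pairs were 1 of the 62 and 7.84% of all tested genes. ELF3, PLEKHA7 and PODXL were picked for the smallest p, which in part fixes the agreement of their pairs. CDC42, the gene of the GTPase that PAR-6 binds, had a log2 change of 0.020 ± 0.039 without the block and an adjusted p of 0.947 in edgeR with it.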

How the data were processed

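The file holds unnormalised read counts, 1 per gene, for 8 libraries (polyA-selected, stranded TruSeq, per the labels' protocols), which the authors made with STAR 2.7.3a and featureCounts after Trim Galore 0.6.5 and FastQC 0.11.8, per the submitters' processing notes. Settings for strand and multiply mapped reads are not given in the sources used here. The file names no genome build, but all 36 rows (the 35 genes and MPP5) had the start and end of the RefSeq assembly UU_Cfam_GSD_1.0, which supplied chromosome names. The table had 0 columns of other samples.

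Counts were tested on the whole table with edgeR 4.0.16 (R 4.3.3; TMM, filterByExpr, glmQLFit with robust estimation, intercept and stretch term; two-sided, Benjamini-Hochberg), after a check on simulated data. Same-numbered wells deviated together from their group means (correlation across genes 0.108 to 0.328 over 4 numbers, mean 0.199). Values with the replicate block are therefore printed for PARD6B, whose call they change. They are also printed for STK11, GRHL2, OVOL1, ELF3, PLEKHA7, PODXL and CDC42, whose calls they do not change. Only control well 1 correlated best with the stretch well of its own number: control well 2 did so with stretch well 1, 3 with 4 and 4 with 3, as sets of wells 1 and 2 and wells 3 and 4 would also give. Intervals are 95%. No 2 wells of a group agreed within sampling noise (chi-square per degree of freedom 5.56 to 26.8).

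Members and lists were chosen with earlier results of these data known. Named in full were members with p under 0.05 in either fit, and the highest member per kb and the most changed one of each role. Of the other lists, any that passed or else the 3 with the smallest p were named; OCLN, CDC42 and further genes given by value were picked for their role. Alternatives were DESeq2 1.42.0, limma-voom 3.58.1, other scaling factors and filters, blocks, and leaving out wells or pairs.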

Additional observations from a re-analysis of the deposited data

Results flagged for a closer look

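In 4 of the 70 groups of 4 wells examined (34 genes and MPP5), 1 well lay far from the other 3 relative to the range of the group. About 1 in 20 groups, or 3.5 here, would be expected by chance. For PARD3, stretch well 1 had 74.0 CPM and the others 64.5 to 65.6. For PRKCI, stretch well 3 had 270.5 CPM and the others 255 to 257. For ANK3, control well 3 had 246.6 CPM and the others 277 to 279. For MPP5 (PALS1), control well 3 had 50.1 CPM and the others 43.7 to 44.2. None of these 4 genes passed in any fit.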

How the results depend on the processing

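The count of members called without a block was 0 under every scaling, filter, tool and single-well omission tried, 0 with the block of 2 levels, and 1 with the replicate block (PARD6B, log2 change 0.28). With the replicate block it stayed at 1 under DESeq2, without the count filter and with each pair left out. Over all tested genes, the count without a block was 0 in edgeR (579 at an unadjusted p under 0.05), 0 with limma-voom, 38 with DESeq2, 11 without the count filter, 102 with the replicate block, 58 with the block of 2 levels, 51 in replicates 1 and 2 alone, 25 in replicates 3 and 4 alone and 0 to 12 when single wells were left out (12 without control well 3, 3 without stretch well 1). With the replicate block it was 448 without the count filter and 43, 67, 186 and 74 when pair 1, 2, 3 or 4 was left out.

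Small log2 changes that never passed took the other sign under some settings, listed here for the genes named in full and MPP5. In replicates 1 and 2 alone the log2 changes were -9.1e-04 for F11R, 0.012 for YBX3, 0.038 for CRB3, -0.039 for PATJ, -0.016 for PRKCI, 0.072 for SCRIB, 0.11 for LLGL2, -0.026 for EPCAM and -0.045 for SYTL2. In replicates 3 and 4 alone they were 0.0093 for CGNL1, 0.081 for ANK3 and 0.014 for MPP5. Other members turned too, among them CGN (-0.045 in replicates 1 and 2) and OCLN (0.048 in replicates 3 and 4). YBX3 was 0.0023, 0.0018 and 0.0015, and MPP5 0.0024, 0.0013 and 0.0010, with upper-quartile factors, library size only and at least 10 counts in every well. With single wells left out, ranges that crossed 0 were -0.060 to 0.0054 for ANK3, -0.13 to 0.013 for CGNL1, -0.10 to 0.0031 for CRB3, -0.035 to 0.060 for EPCAM, -0.0033 to 0.053 for F11R, -0.10 to 0.033 for LLGL2, -0.030 to 0.047 for MPP5, -0.029 to 0.025 for PATJ and -0.017 to 0.024 for YBX3. PARD6B ranged from 0.20 to 0.37, OVOL1 from -0.48 to -0.17 and GRHL2 from -0.14 to -0.080, in 1 direction each. SHROOM3 ranged from 0.036 to 0.12, STK11 from -0.12 to -0.057 and MARVELD3 from -0.087 to -0.027. Members below 0 numbered 19 to 21 under the scaling alternatives and 18 to 24 with single wells left out. The cause of these shifts was not tested. The replicate block changed no other call among the members. OVOL1, CGNL1 and MAGI1, with 129 to 301 raw counts per well, had the largest standard errors of the 34 without the block (0.20, 0.13 and 0.12).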
